A study of Bombus terrestris with 8 samples.

Results

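The regions described here had an ATAC-seq peak in both egg samples and both pupal samples of *B. terrestris*, the buff-tailed bumblebee, and in none of the larval or adult samples. ATAC-seq reads open chromatin from the places where a transposase can cut DNA. The distinct peak intervals of all 8 lists on the 18 chromosome sequences of the Bter_1.0 assembly were joined where they overlapped by 1 bp or more, which gave 52844 joined regions. Of these, 845 regions (1.60%) met the rule, and they covered 434 kb of the 23818 kb of joined regions. The members were therefore chosen by the peak calls themselves, and their presence in egg and pupa and absence elsewhere is a definition, not a result.

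Worker animals from commercial colonies were sampled at 4 developmental stages, with 2 samples per stage. Adults were taken singly, while the younger stages were pooled until the material had about the bulk of an adult. Pupae were at a point after the onset of eye pigment and before the wings had formed. Whole bodies were used, so that a peak found in a stage can stem from any of its tissues, and a change in the share of a cell type cannot be told apart from a change in its chromatin.

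Accessible chromatin in an animal genome marks mostly promoters and enhancers, stretches where nucleosomes give way to transcription factors. In insects with complete metamorphosis, the embryo inside the egg lays down the larval body, the larva feeds and grows, and the pupa remodels larval tissue and builds legs, wings, eyes and genitalia of the adult. Egg and pupa are thus both stages of tissue formation, set apart by the larva. Gene positions and sequence of Bter_1.0 were not used here, so neither the genes beside these regions nor motifs within them were analysed.

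The lists of the placed chromosomes held 26495 and 23907 intervals for egg replicates 1 and 2, 26493 and 31105 for the pupa, 20993 and 24817 for the adult, and 11768 and 7875 for the larva. The larval lists were the shortest, and a region is more easily absent from a short list. Read numbers under a peak are not part of the lists, which leaves its depth unknown. Where no peak was called a list gives no value, so absence means only that no interval passed the authors' threshold. Among the regions with peaks in both samples of exactly 2 stages, 940 were of pupa and adult, 845 of egg and pupa, 308 of egg and adult, 46 of egg and larva, 16 of larva and pupa and 5 of larva and adult. There is a single number per pattern for the whole series, and so no replicate error.

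The egg and pupa regions were of middling strength. The fold enrichment over the local background, taken at the best summit of a region, had a median of 4.13 in egg replicate 1, 3.10 in egg replicate 2, 3.42 in pupa replicate 1 and 3.28 in pupa replicate 2. Over all 11490 regions with a peak in these 4 lists, the medians were higher, at 5.03, 4.86, 4.60 and 4.36. These include the 4880 regions of all 8 lists, with medians of 6.25, 6.60, 5.90 and 5.22, which the rule leaves out. Regions of pupa and adult only had 3.17 and 3.12 in pupa replicates 1 and 2. Regions of egg and adult only had 3.22 and 3.62 in egg replicates 1 and 2. Values in the 845 regions ran from 1.68 to 9.95 in egg replicate 1, from 1.55 to 8.04 in egg replicate 2, from 1.69 to 9.49 in pupa replicate 1 and from 1.57 to 8.36 in pupa replicate 2. A −log10 (P value) above 20 was reached by 221 of the 845 in egg replicate 1 (26.2%), where 26.4% of all joined regions with an interval in that list reached it. In egg replicate 2 it was reached by 52 (6.15%, against 35.3%), in pupa replicate 1 by 160 (18.9%, against 31.4%) and in pupa replicate 2 by 319 (37.8%, against 38.6%). The shares in egg replicate 1 and pupa replicate 2 were thus near the background, while that in egg replicate 2 was far below it. In all 4 lists together, 5 regions exceeded 20, against 34.4% of the 11490 regions.

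Fold enrichment and P value are not normalized between libraries. Each region was therefore given its percentile rank among the placed intervals of the same list, where 100 is the strongest peak. By −log10 (P value), the median rank of the 845 regions was 59.0% in egg replicate 1, 27.5% in egg replicate 2, 50.5% in pupa replicate 1 and 54.0% in pupa replicate 2. The pupal lists lay close together, between the values of the egg lists, which were far apart. Averaged over the samples of a stage, the median rank was 43.3% ± 22.3 (SD, n = 2) in the egg and 52.2% ± 2.47 (SD, n = 2) in the pupa. The difference of 8.98 percentage points was smaller than the spread between the egg samples (exact permutation test over the 4 samples, two-sided, p = 1). With 2 samples against 2, this exact permutation test cannot go below p = 0.33. The study calls its replicates biological, and the labels do not say which colonies went into which sample, so biological and technical spread cannot be told apart. Ranked by fold enrichment, the medians were 60.3%, 31.8%, 50.2% and 55.8% in the same order, with a difference of 6.92 percentage points (exact permutation test, two-sided, p = 1).

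**Figure D1:**
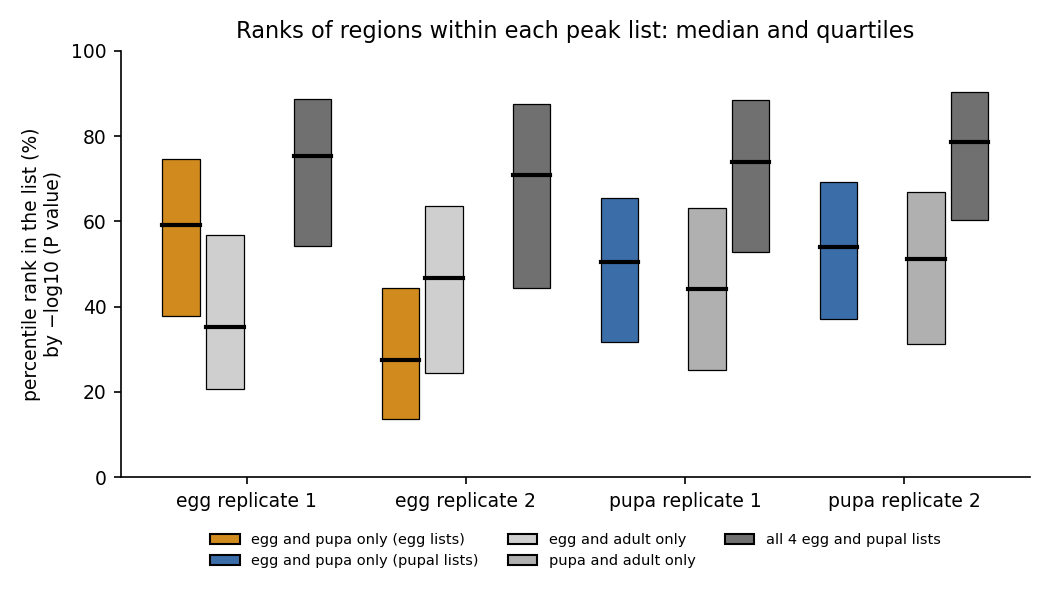
Percentile rank by −log10 (P value) within each of the 4 egg and pupal peak lists, with a bar from the lower to the upper quartile over regions and a black line at the median. The regions of egg and pupa only have their median at 59.0% in egg replicate 1 and 27.5% in egg replicate 2, while the regions of egg and adult only have 35.3% and 46.7%; a group has no bar in a list its rule leaves out.

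The egg replicates thus held the same regions at different strength. The rank in egg replicate 1 was above that in egg replicate 2 in 685 of the 845 regions (81.1%, 95% Clopper-Pearson interval 78.3% to 83.7%, counting error only). Over all 11490 regions with peaks in the 4 lists the share was 56.0%. For the 308 regions of egg and adult only it was 39.6% (34.1% to 45.3%), where the order of the egg replicates was turned. It was also turned in the 4880 regions of all 8 lists, at 45.7% by −log10 (P value), and near even there by fold enrichment, at 49.9%. Egg replicate 2 was the list of lowest rank for 497 of the 845 regions (58.8%), followed by pupa replicate 1 with 142, egg replicate 1 with 114 and pupa replicate 2 with 92. Egg replicate 1 was the list of highest rank for 386 regions, and egg replicate 2 for 43. Between the pupal replicates the order was near that of the background, with replicate 1 higher in 336 regions (39.8%) against 37.9% of all regions in the 4 lists.

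Across the 845 regions, the ranks in the egg replicates had a Spearman correlation of 0.281, and the ranks in the pupal replicates one of 0.611. Between an egg and a pupal list of the same replicate number the correlation was 0.229 and 0.247, and between those of different number 0.146 and 0.183. Over the 11490 regions the values were 0.622 for the egg replicates and 0.842 for the pupal ones. Between the stages they were 0.687 and 0.682 for lists of the same number, and 0.615 and 0.591 for lists of different number. Over the 11490 regions each egg list was thus closer to the pupal list of its number than to the other egg list. What the replicate number stands for is not in the labels and was not tested. The points of such a correlation share their libraries, and the 845 regions span a narrower range of values, so these numbers are descriptive. The pupal lists ordered the 845 regions much more alike than the egg lists did. Many regions also shared a value, since the 845 regions had 352 distinct values of −log10 (P value) in egg replicate 2 and 459 in egg replicate 1.

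**Figure D2:**
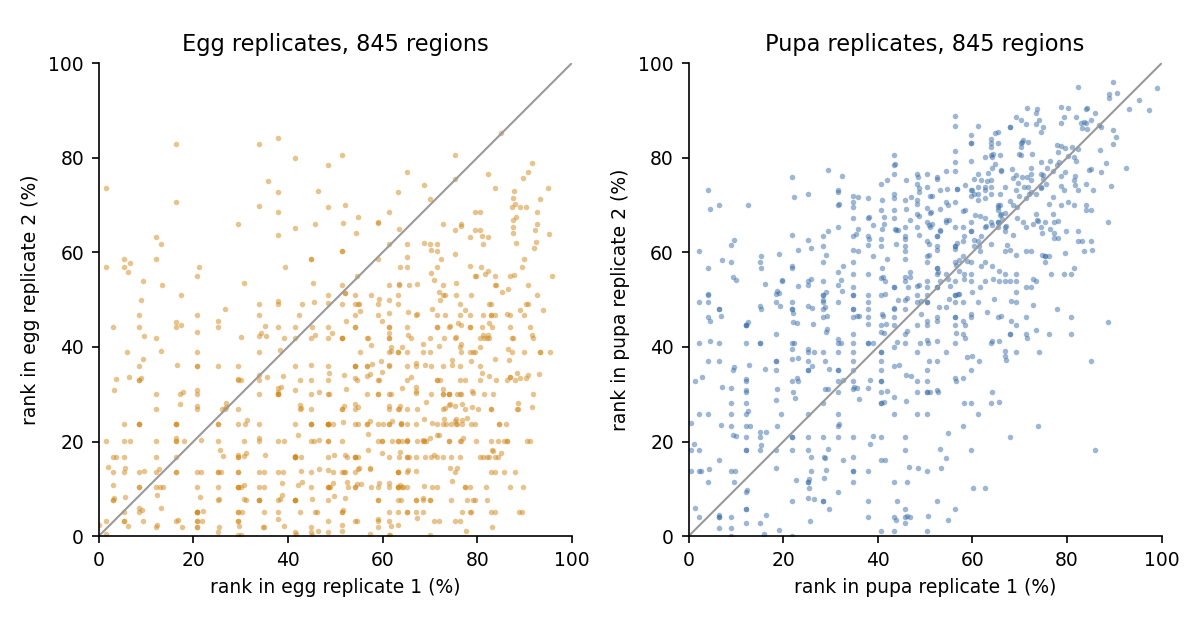
Percentile rank of each of the 845 regions (points) in replicate 1 (horizontal axis) and replicate 2 (vertical axis) of the egg, left, and the pupa, right, with the line of equal rank. In the egg 685 points lie below the line, while the pupal points spread along it (Spearman correlation 0.611 against 0.281 in the egg).

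Both pupal ranks were above both egg ranks in 221 of the 845 regions (26.2%), against a background of 25.2% over all regions with peaks in the 4 lists, so this share was near the background. Both egg ranks were above both pupal ranks in 80 regions (9.47%, 95% Clopper-Pearson interval 7.58% to 11.6%, counting error only), against 13.6% in the background. In the remaining 544 of the 845 regions the ranks of the stages overlapped. Both egg ranks were higher in a like share of the regions of egg, pupa and adult only (168 of 1871, 8.98%), and in 15.4% of those of all 8 lists. The low share was thus not particular to the 845 regions. The share of regions higher in the pupa was 63.2% of 1167 regions without egg replicate 1 and 40.7% of 2335 without egg replicate 2. There the rule and the order rest on 3 lists, and the order is met more easily with a single egg list. No background share was computed for 3 lists, so these shares cannot be read against the 25.2%. By fold enrichment the counts were 218 and 93, against 24.7% and 15.5% in the background. The 221 regions higher in the pupa had a median width of 520.0 bp, the 80 higher in the egg 455.5 bp and the overlapping ones 450.0 bp.

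The regions with the highest rank in their weakest list were followed in each sample. At NC_015779.1 from 20019 to 20406, near the beginning of that sequence, the fold enrichment was 7.18 and 4.90 in egg replicates 1 and 2 and 5.46 and 4.81 in pupa replicates 1 and 2. The summits of the 4 lists lay within 20 bp of each other there, and the lowest of the ranks was 71.3%. At NC_015772.1 from 11583458 to 11583844, the fold enrichment was 5.75 and 4.04 in the egg and 5.08 and 4.50 in the pupa, with all summits within 3 bp. These stretches were narrow, at 388 and 387 bp, and held a single summit in each list.

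The other 3 of this group were wider. NC_015775.1 from 2604976 to 2605853 reached a fold enrichment of 9.16 and 5.52 in the egg and 6.43 and 6.48 in the pupa, and it lay 23401 bp from the nearest larval or adult interval. For NC_015773.1 from 12293907 to 12294444 the values were 6.28 and 5.01 in the egg and 4.45 and 6.01 in the pupa. For NC_015763.1 from 2543737 to 2544762 they were 7.60 and 5.40 in the egg and 7.21 and 7.21 in the pupa. In each of the 5 regions, egg replicate 1 had a higher fold enrichment than egg replicate 2, and in 3 of the 5 both pupal values lay between the egg values. Ranked by fold enrichment, egg replicate 1 was above egg replicate 2 in 670 of the 845 regions (79.3%), so this order was common among them. Over all regions in the 4 lists the share was 57.1%.

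The widest gap in favour of the pupa was found at NC_015771.1 from 1237395 to 1238250. Its fold enrichment was 2.21 and 2.46 in the egg against 5.24 and 5.59 in the pupa, and its ranks were 5.53% and 8.32% against 83.6% and 87.6%. The next were NC_015772.1 from 15179491 to 15180502, with 2.58 and 2.64 in the egg against 5.59 and 5.73 in the pupa, and NC_015763.1 from 11931785 to 11932246, with 2.84 and 2.30 against 6.15 and 8.29. These are peaks barely in the egg lists and well up in the pupal lists. In the opposite direction, NC_015772.1 from 5944799 to 5945218 showed values of fold enrichment of 5.42 and 5.29 in the egg against 2.70 and 2.12 in the pupa. At NC_015763.1 from 10051197 to 10051865 the values were 4.77 and 4.94 against 2.70 and 2.49, and at NC_015772.1 from 13751944 to 13752429 they were 4.64 and 4.25 against 2.05 and 2.31. All 6 regions were picked for these gaps, which requires both samples of the higher stage to be high, so that no test was made on them.

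Joined regions of egg and pupa had a median width of 462 bp, with quartiles of 376 and 601 bp and a range from 239 to 1951 bp. Regions of pupa and adult only (463 bp) and of egg and adult only (437 bp) were of like width, whereas all regions in the 4 lists had a median of 649 bp and those in all 8 lists 814 bp. Single intervals in the 845 regions had a median width of 348 bp in egg replicate 1, 277 bp in egg replicate 2, 340.0 bp in pupa replicate 1 and 374 bp in pupa replicate 2. In the regions of all 8 lists the single intervals were wider, at 519, 615, 610.0 and 727 bp in the same order. Within the 845 regions, egg replicate 2 had the narrowest as well as the lowest ranked intervals.

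A single summit in each of the 4 lists was listed for 655 regions (77.5%), against 56.0% of all regions in the 4 lists. The stretch covered by all 4 lists had a median of 227 bp, and in 20 regions (2.37%) the 4 lists had no base in common, against 1.08% of all regions in the 4 lists. The widest region, NC_015762.1 from 3123106 to 3125056, held 2, 1, 3 and 2 summits in egg replicates 1 and 2 and pupa replicates 1 and 2, with a fold enrichment of 4.59, 3.88, 2.76 and 4.46. Its common stretch was 229 bp. The next, NC_015768.1 from 8041264 to 8042798, had 1, 2, 2 and 3 summits and a fold enrichment of 2.32, 2.76, 5.03 and 4.92.

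The rule did not use the position of summits, but it required intervals joined by overlap, which limits how far apart their summits can lie. Short distances thus follow in part from the rule. In the 845 regions, the best summits of the egg replicates were a median of 24.0 bp apart and those of the pupal replicates 19.0 bp. Between an egg and a pupal list the median distance was 26.3 ± 2.06 bp (SD over 4 pairs of lists, which share samples, from 24.0 to 29.0 bp), and 70.8% of these distances were at most 50 bp, against 78.9% between replicates. Over all regions of the 4 lists these shares were higher, at 76.9% between the stages and 81.0% between replicates. The best summits of egg and pupa in the 845 regions thus mostly stood within 50 bp, but less often than in that background. Their medians of 24.0 to 29.0 bp between the stages were at or above the 24.0 bp of the egg replicates. By pair of lists, 67.0% to 72.8% were within 50 bp between the stages, against 76.0% for the egg replicates. In all regions of the 4 lists the corresponding medians were 20.8 bp between the stages and 18.0 bp between replicates. All 4 summits fell within 50 bp in 404 of the 845 regions (47.8%), against 57.0% of all regions in the 4 lists.

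The distance rose with the width of the joined region. In the 282 regions under 400 bp, it was 15.6 bp between stages and 16.5 bp between replicates. The 351 regions from 400 to under 600 bp had 30.8 and 24.5 bp. In the 212 regions of 600 bp or more, the summits of egg and pupa were 54.6 ± 6.37 bp apart (SD over 4 pairs of lists), and those of replicates 31.3 ± 3.89 bp (SD, n = 2 pairs). For the 6566 regions of that width in all 4 lists, these distances were 23.3 and 20.5 bp. Wide regions of egg and pupa thus had summits farther apart between the stages than within them in each of the 4 pairs of lists. Intervals displaced from each other join to a wider region, so width and summit distance are not independent. Single intervals were also narrower in the 845 regions (medians of 277 to 374 bp) than in all regions of the 4 lists (419 to 554 bp). The 4 pairs of lists share samples, and no test was made on them.

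**Figure D3:**
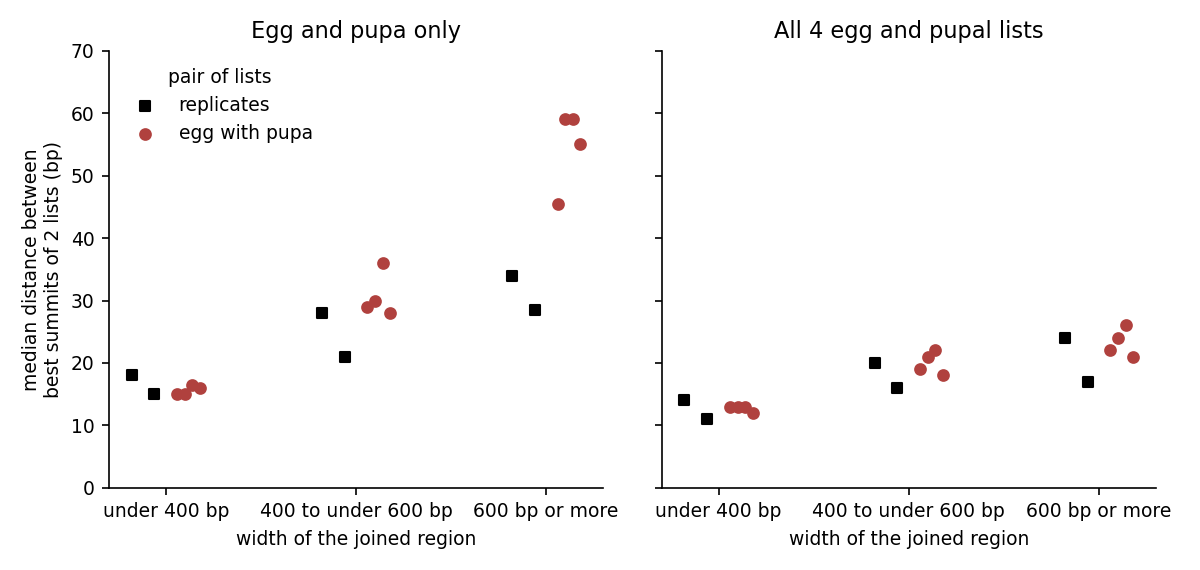
Median distance in bp between the best summits of 2 lists (vertical axis) by width of the joined region (horizontal axis), for the 845 regions of egg and pupa only, left, and all 11490 regions with a peak in the 4 lists, right. Squares are the 2 pairs of replicates and circles the 4 pairs of an egg and a pupal list; at 600 bp or more the circles of egg and pupa only average 54.6 bp and the squares 31.3 bp.

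A summit that moved between the stages was taken as one where the replicates of each stage lay within 50 bp of each other and every egg summit was more than 100 bp from every pupal summit, a definition set after the distances had been seen. It held for 21 of the 845 regions (2.49%), against 1.71% of all regions in the 4 lists. Of the regions of 600 bp or more, 18 of 212 met it (8.49%, 95% Clopper-Pearson interval 5.11% to 13.1%, counting error only), against 2.65% (2.28% to 3.07%) of all regions of that width in the 4 lists. As displaced summits widen a joined region, this share is not independent of the width class. The largest shift was at NC_015765.1 from 9662521 to 9663733. There the egg summits stood at 9663492 and 9663460 and the pupal ones at 9662780 and 9662782, with a fold enrichment of 6.45 and 2.87 in the egg and 4.33 and 4.83 in the pupa. At NC_015775.1 from 9795215 to 9796222, the egg summits stood at 9795414 and 9795400 and the pupal ones at 9795963 and 9795920. In these regions the best summit of the egg and that of the pupa were separate places inside a single joined region. Each pupal list held 3 summits in the first region and 2 in the second, where egg replicate 1 also held 2. Only the best summit of each list was compared, so a weaker summit of a stage can lie near the best of the other.

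Every chromosome sequence carried members, from 18 on NC_015779.1 to 79 on NC_015772.1. Their number followed the number of joined regions (Spearman correlation 0.814 over 18 sequences of differing length, descriptive). Per Mb between the outermost regions of a sequence there were from 2.62 members on NC_015762.1 to 5.62 on NC_015778.1, with 3.90 over all 217 Mb. As a share of the joined regions, members ranged from 1.18% on NC_015762.1 (45 of 3801, 95% Clopper-Pearson interval 0.865% to 1.58%) to 2.05% on NC_015778.1 (20 of 975, 1.26% to 3.15%). NC_015762.1 was the single sequence of 18 whose interval did not hold the share over all sequences, and regions of a chromosome are not independent. Among regions with peaks in all 4 egg and pupal lists, its share was 5.98% (45 of 752, 4.40% to 7.93%), an interval that holds the 7.35% over all sequences, as did those of the other 17 sequences. In 5 equal parts of each sequence from beginning to end, 175, 179, 141, 177 and 173 members were found, with the fewest in the middle, where 16.7% of the members and 19.9% of all regions lay.

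**Figure D4:**
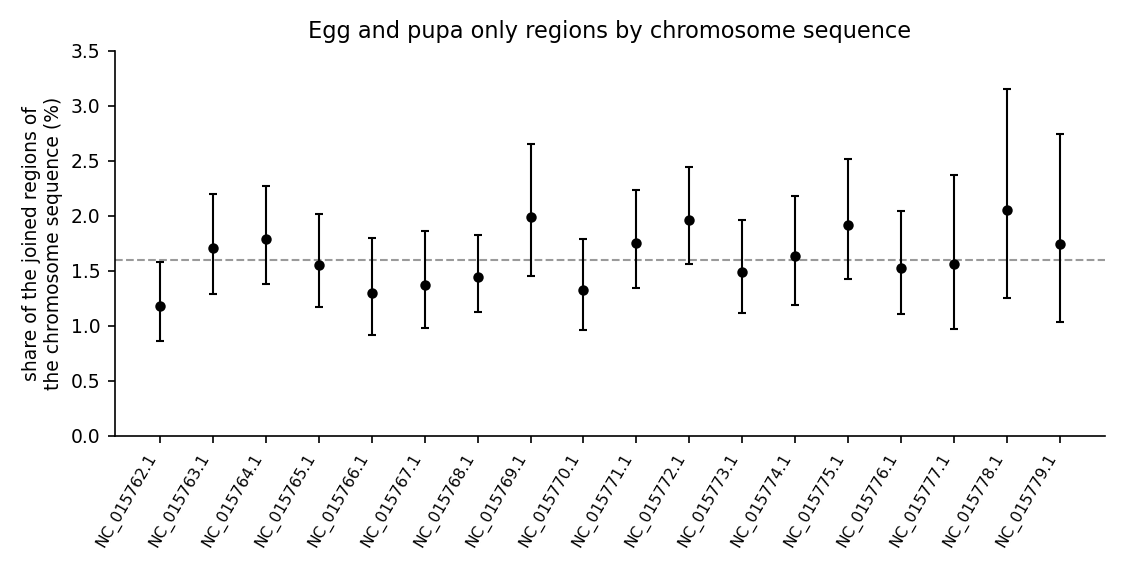
Share of the joined regions of each chromosome sequence of Bter_1.0 that were of egg and pupa only, in percent, with 95% Clopper-Pearson intervals as bars and the share over all 18 sequences as the broken line. The shares lie between 1.18% on NC_015762.1 and 2.05% on NC_015778.1, and each interval but that of NC_015762.1 holds the share over all sequences.

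The nearest other member was a median of 68.2 kb away, and 110 members (13.0%) had another within 10 kb. Of the 1689 regions next to a member on either side, 40 (2.37%) were themselves members, against 1.60% of all regions. Peaks of egg replicate 1 and both pupal samples alone made up 4.26% of these neighbours, against 2.81% of all regions, while regions in all 8 lists made up 7.87%, against 9.23%. The 40 count each of 20 adjacent pairs of members from both sides, and these differences were not tested. Of the neighbours of regions of pupa and adult only, 3.09% were of their own kind, against 1.78% of all regions. A region in all 8 lists was a median of 14.9 kb from a member of egg and pupa and 15.5 kb from a region of pupa and adult only.

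The 100 kb with most members lay on NC_015764.1 and began at 5540080, with 6 members among 49 joined regions, against a mean of 0.390 members per 100 kb. The fold enrichment in egg replicates 1 and 2 and pupa replicates 1 and 2 was 3.74, 3.31, 3.91 and 3.24 at 5540080 to 5540364. It was 4.13, 3.02, 3.54 and 4.36 at 5549811 to 5550267, and 5.45, 3.33, 3.87 and 4.44 at 5577158 to 5577508. These 3 had summits within 20 bp of each other in the 4 lists. The remaining 3 were less even. At 5592883 to 5593375 the values were 3.22, 3.56, 2.42 and 1.93, at 5605274 to 5605633 they were 2.27, 2.12, 3.69 and 2.39, and at 5616973 to 5617433 they were 4.0, 2.15, 3.45 and 3.05. A single region of the 49 had a peak in all 8 lists.

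The rule can fail in a single list, and the regions just outside it were counted. An interval was missing in egg replicate 2 alone for 1486 regions, in egg replicate 1 alone for 320, in pupa replicate 1 alone for 250 and in pupa replicate 2 alone for 135. The number lost through egg replicate 2 thus exceeded the 845 members. Without egg replicate 2 the rule gave 2335 regions, and without adult replicate 2 it gave 1270. With the adult in place of the pupa, the order of the egg samples was turned, since 202 regions of egg and adult lacked an interval in egg replicate 2 alone and 679 in egg replicate 1 alone. On the other side, 961 regions had the 4 egg and pupal peaks and an interval in a single larval or adult list, of which 421 were in adult replicate 2, 324 in larva replicate 1, 171 in adult replicate 1 and 45 in larva replicate 2. In 46 of the 961 (4.79%), that interval had a −log10 (q value) below 2.

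**Figure D5:**
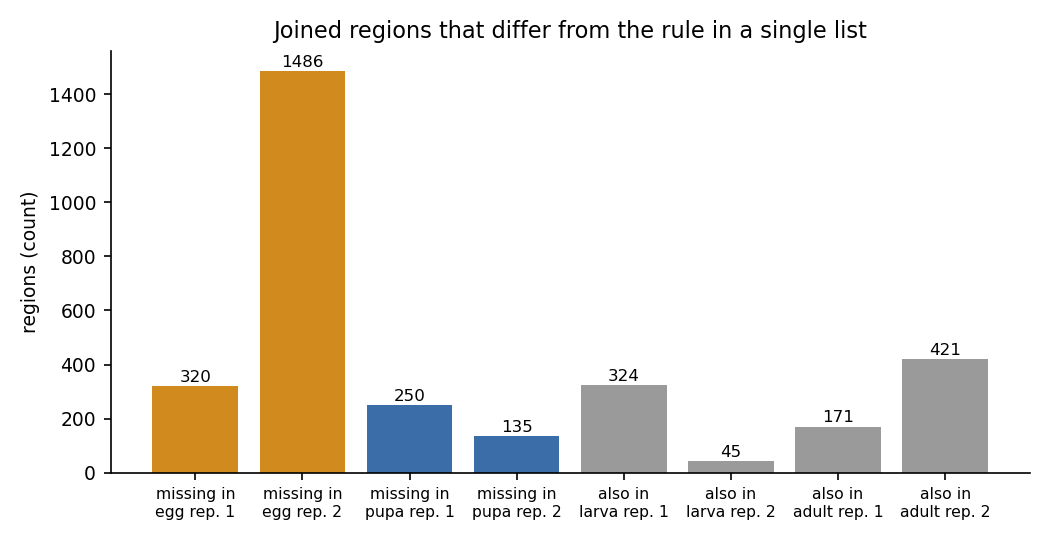
Number of joined regions (vertical axis) that differ from the egg and pupa only pattern in a single list, either by lacking an interval in 1 of the 4 egg and pupal lists (coloured bars) or by having an interval in 1 of the 4 larval and adult lists (grey bars). The bar for egg replicate 2 stands at 1486 and that for egg replicate 1 at 320.

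Nearest to the threshold were 30 of the 845 members (3.55%) with a −log10 (q value) below 2 in at least 1 of the 4 lists, of which egg replicate 2 accounted for 14. The same share over all regions in the 4 lists was not computed. The edge of the nearest larval or adult interval was a median of 2275 bp away, within 200 bp for 22 members and within 1000 bp for 213 (25.2%, 95% Clopper-Pearson interval 22.3% to 28.3%). These shares were not computed for other regions, so they cannot be read as a trait of the members. The nearest joined region of any kind was a median of 0.946 kb from a member. The closest was NC_015764.1 from 10771464 to 10772371, 26 bp from an interval of adult replicate 2, with a fold enrichment of 2.75 and 2.21 in the egg and 3.48 and 2.54 in the pupa. NC_015771.1 from 2194261 to 2194691 and NC_015768.1 from 1517760 to 1518913 followed, at 37 and 57 bp from intervals of the same sample. For these members the rule rests on where an interval of adult replicate 2 ends. Whether that interval belongs to a separate peak was not tested. The weakest intervals that kept regions out were all in adult replicate 1, with a −log10 (q value) of 1.31 and a fold enrichment of 1.89, at NC_015774.1 from 2945176 to 2945894, NC_015765.1 from 3555953 to 3556891 and NC_015773.1 from 11986494 to 11987144. The fold enrichment in these regions was 3.64, 5.80 and 5.54 in egg replicate 1 and 5.30, 3.05 and 5.42 in pupa replicate 2, well inside the range of the members.

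Membership depended on the threshold of the lists. At a −log10 (q value) of at least 2 in each list, 865 regions met the rule, and 815 of the 845 were among them. At a −log10 (P value) of at least 10 it was met by 724 regions, which held 158 of the 845. When every list was shortened to its 7875 strongest intervals by −log10 (P value), the length of the shortest list, 51 regions met the rule, and 4 of the 845 were among them. The set therefore changed little near the authors' threshold and was mostly exchanged at the stricter ones.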

How the data were processed

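Peak lists of 8 whole-body ATAC-seq samples, 2 per stage, were used. The authors filtered reads with SOAPnuke, aligned them to Bter_1.0 with Bowtie2 2.2.5, keeping up to 200 alignments per read, and called peaks per sample with MACS2 2.2.5 (no model, shift of -100 bp, extension of 200 bp, summits split). For their own analyses they then kept only peaks reproducible between replicates, at an irreproducible discovery rate of at most 0.05. The lists used here hold the candidate peaks before that filter, and how many of the 845 regions would pass it was not computed. Per summit, the deposited lists hold a fold enrichment, which is a ratio to the local background, and the p-value and q-value of that summit, each as −log10. The authors' lists also carry an integer score, not used here. None was normalized between samples, and the smallest −log10 (q value) was 1.30 to 1.31, that is, a q-value of 0.05. The stated parameters name no removal of duplicates. The deposited summit offset was read as a distance from the start of its interval.

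Distinct intervals on placed chromosomes were joined at an overlap of 1 bp. A region took its best summit in each list, ranked by percentile among the placed intervals of that list. Medians over the regions were compared between 2 egg and 2 pupal samples by exact permutation. Shares carry 95% Clopper-Pearson intervals, for counting error only. Joining and ranking were run on simulated lists of 6000 regions, where 100.0% of 200 planted regions were found and 0 others. The simulated regions stood far apart, and none but the planted ones was given the pattern. This run therefore checked the code only and cannot show how often close neighbours are wrongly joined. The regions and tests were chosen with earlier results of these data known. Regions given by position follow a rule on rank, gap between stages, width, density and nearness to other intervals, and those with a moved summit were chosen after their values were seen. Coordinates count from 1 on Bter_1.0. A gene table of another assembly was not used, so the planned position relative to genes and sequence were not analysed here. Alternatives covered thresholds, joining, contigs, ranking, presence and leaving out each sample. Python 3.11.15, numpy 2.4.6, scipy 1.17.1, pandas 2.3.3 and matplotlib 3.10.9 were used.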

Additional observations from a re-analysis of the deposited data

Results flagged for a closer look

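The rule left out the unplaced contigs of Bter_1.0, yet 108 of the 10401 joined regions on them (1.04%) had peaks in both egg and both pupal samples and in no larval or adult sample. The 95% Clopper-Pearson interval of this share was 0.853% to 1.25% (counting error only), below the 1.60% on the placed chromosomes. Of the 3964 unplaced regions with peaks in all 4 egg and pupal lists, 2.72% (2.24% to 3.28%) were of this pattern, against 7.35% on the placed chromosomes. The result is listed here because these contigs lie outside the data that the report compares. They lay on 47 contigs, and 1 of them began at the first base of its contig. Their median width was 458 bp, and the median fold enrichment was 4.13 in egg replicate 1, 3.10 in egg replicate 2, 3.37 in pupa replicate 1 and 3.18 in pupa replicate 2. The egg samples thus stood in the same order on these contigs as on the placed chromosomes.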

How the results depend on the processing

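The number of regions of egg and pupa only was 5 with a −log10 (P value) of at least 20 in the egg and pupal lists, 51 with lists of equal length, 1806 with up to 1 larval or adult interval allowed and 4682 with at least 1 egg and 1 pupal list. It stayed within 1.5 times of 845 under the other settings, at 865 with a −log10 (q value) of at least 2, 843 with joining at an overlap of 0.5 of the shorter interval and 953 with all contigs. Leaving out each sample gave 890 to 2335 regions. With ranks taken among the regions of all 4 lists in place of all intervals, the difference of pupal and egg median rank turned to -1.06 by fold enrichment and -0.997 by −log10 (P value), and the pupa was higher in 21.1% of regions. The differences ran from 3.38 to 18.3 and from 2.89 to 21.8 with a sample left out, and no exact permutation p was below 0.33, the smallest it can give. The share of regions higher in the pupa ran from 26.3% to 63.2% with a sample left out. No background share was computed for these settings, and leaving out an egg or pupal sample also makes the order easier to meet.

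At a −log10 (P value) of at least 20, the 5 regions had a pupal order in 20%, a width of 878 bp, summits 15.3 bp apart, 0% on NC_015762.1 and 20% within 1000 bp of a larval or adult interval. At 10 or more, the width was 562.5 bp, the summit distance 23.5 bp and the share near such an interval 14.5%. Lists of equal length gave a width of 733 bp. Joining intervals up to 200 bp apart gave a summit distance of 28.5 bp and 21.4% near a larval or adult interval. With a sample left out, summit distances ran from 25.5 to 29.5 bp and that share from 21.6% to 26.7%. The alternatives for the share on NC_015762.1 and for the nearness to other intervals were chosen after the data were seen. The cause of these changes was not tested.

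The replicate number as a block left the differences of rank at 6.92 by fold enrichment and 8.98 by −log10 (P value), with pairs of opposite sign. Over the regions of all 4 lists the deviations of same-numbered samples had a correlation of 0.257, and over the 845 regions one of 0.161. With only 2 pairs it cannot be told whether the numbers pair the samples. The lists carry no read numbers, and the library totals of the study were not used here, so no depth is given beside an absence.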
